A study of Mus musculus with 2 samples.

Results

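The 10 genes described here make and store fat, and they were taken by name as a lipogenesis and lipid uptake set, with no threshold on their values but with earlier results of these data known. They are Acly, Acaca, Fasn, Elovl6, Scd1, Scd2, Dgat1, Dgat2, Lpl, and Srebf1, and all 10 were present among the 24091 genes of the deposited table. The table gives RNA sequencing values for 2 C57BL/6 libraries, both labelled primary adipocytes, of which 1 came from sham-irradiated mice (the sham library) and 1 from mice given pelvic irradiation of 7.5 Gy with a schedule of 5 days, where the wording does not say whether the dose was daily or total. Both titles also carry the word PBS, whose role the labels do not state. The material came from gonadal fat taken 2 months after irradiation, from the floating cell fraction of a collagenase digest that was then cultured for 3 days. The labels do not state how many mice were behind a library, whether they were pooled, or their sex and age. Since each condition has a single library, there was no replicate error and no test, and each difference compares these libraries and not the conditions at large.

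New fatty acids are built in the cytosol. ATP citrate lyase (Acly) turns citrate into acetyl-CoA, acetyl-CoA carboxylase (Acaca) turns acetyl-CoA into malonyl-CoA, and fatty acid synthase (Fasn) joins these units into palmitate, which Elovl6 lengthens and the desaturases Scd1 and Scd2 convert into monounsaturated acids. Dgat1 and Dgat2 add the last acyl chain of a triglyceride, Lpl releases fatty acids from circulating lipoproteins for uptake, and Srebf1 encodes the transcription factor SREBP-1, which drives many of these enzymes. In fat tissue the pathway is known as a supply of stored triglyceride, and it responds to feeding and insulin.

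Of the 10 genes, 9 had a lower value after irradiation, and the deepest differences were those of Elovl6, Dgat2, and Scd2. Acly, Lpl, and Srebf1 differed by 0.03 or less, with counting intervals that include 0. Levels are FPKM (fragments scaled to the length of the gene in kilobases and to the size of the library), and a difference is log2(FPKM + 0.1) as deposited, irradiated minus sham. Each difference carries a 95% exact binomial interval of the fragment ratio, which covers counting error only. The summed FPKM of the 10 genes was 381 in the sham library and 341 in the irradiated one, 10.6% lower. The fragments of the 10 genes, not divided by length, made up 0.222% and 0.197% of all fragments, respectively.

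**Figure D1:**
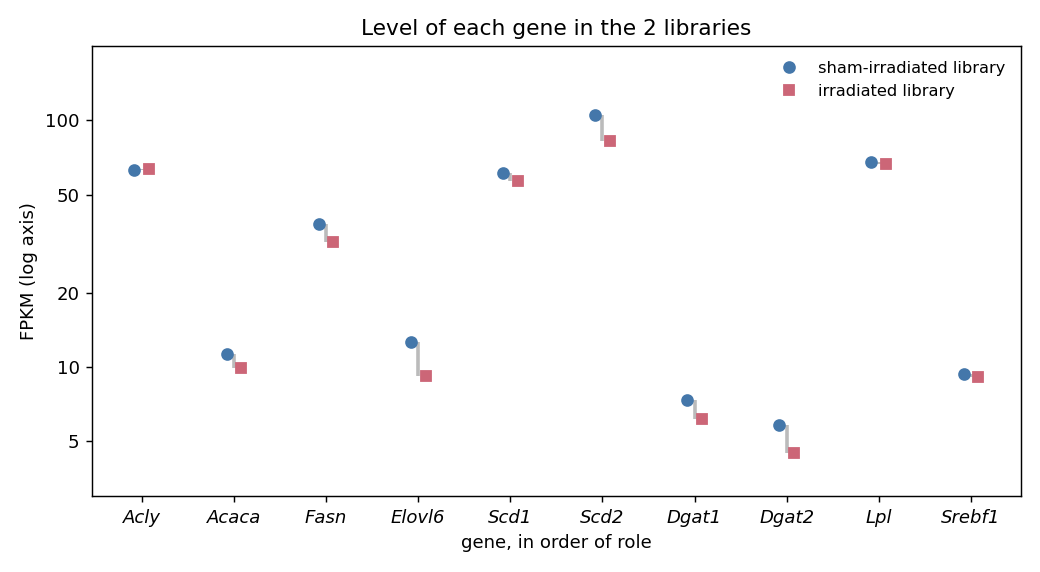
FPKM of each of the 10 genes on a log axis, with a circle for the sham library and a square for the irradiated one (1 library each, so no error bars). The levels span from 4.49 for Dgat2 to 105 for Scd2, and the square lies below the circle for 9 genes, while for Acly, Lpl, and Srebf1 they nearly coincide.

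The background was set by the 11253 genes that reached an FPKM of 1 in either library. Among them, 44.0% were lower in the irradiated library, against 9 of the 10 genes here. A difference of -0.2 or lower was found for 5 of the 10 genes, Fasn, Elovl6, Scd2, Dgat1, and Dgat2, and for 8.93% of all genes kept. No member was higher by at least 0.2, whereas 18.2% of all genes were. The 10 genes all reached an FPKM of 5, and among the 7538 genes that did so, 46.2% were lower and 7.04% were lower by at least 0.2. The differences were modest in size. None of the 10 was lower by at least 0.5 (1.44% of all genes) or by at least 1 (0.373%), and none was higher by at least 0.5 (4.31%) or by at least 1 (0.791%). The counting interval lay below 0 for 7 of the 10 genes and for 17.4% of all genes, and above 0 for 0 of the 10 and for 23.8% of all genes. These shares are not at like depth, since an interval narrows with more fragments. The median FPKM under sham was 25.3 for the 10 genes and 8.30 for all genes kept. The median difference was -0.21 over the 10 genes and 0.02 over all genes kept. These shares describe the libraries, and nothing particular to the set is drawn from them.

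Markers of mature fat cells were scarce in both libraries. Adipoq, the adipocyte hormone adiponectin, had an FPKM of 0.133 (sham) and 0.232 (irradiated), and Plin1, the coat protein of the fat droplet, had 0.254 and 0.478. Of 15 mature adipocyte markers, 12 did not reach an FPKM of 1 in either library, and none was without fragments in both, with Fabp4 the most abundant at 96.9 in each. Of 12 fibroblast and progenitor markers, 7 were lower and 5 higher in the irradiated library, with a median difference of -0.065. Their summed FPKM was 4632 and 3728. A large part of that sum was the collagen gene Col1a1, the most abundant, with 1937 and 1428, a difference of -0.44. Of 13 macrophage markers, 11 were higher in the irradiated library (summed FPKM 627 and 675, although Lyz2, the most abundant, differed by -0.11). Of 8 mesothelial markers, 7 were higher (34.5 and 49.5), with Wt1, the most abundant, at -0.13. Their median difference was 1.255, and 5 of the 8 were higher by at least 1, against 0.791% of all genes kept. Of 8 endothelial markers, 7 were higher (48.3 and 54.9), with Cdh5, the most abundant, at -0.02. For comparison, 44.0% of all genes kept were lower in the irradiated library, and 18.2% were higher by at least 0.2. A value higher by at least 0.2 was found for 8 macrophage, 7 mesothelial, 4 endothelial, and 2 fibroblast and progenitor markers. In the other direction, 5 fibroblast and progenitor markers were lower by at least 0.2, as were 8.93% of all genes kept. The number was 0 for macrophage, mesothelial, and endothelial markers. None of 5 epithelial markers reached an FPKM of 1, and Krt14, the most abundant of them, had 2 and 6 fragments. In bulk RNA, fewer cells of a type and less RNA per cell cannot be told apart, and the part of these shifts in the differences of the 10 genes was not tested.

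In mm10, as the deposited table gives them, the genes of the cytosolic steps lie on chromosome 11, with Acly at chr11:100476352-100528000 and Fasn at chr11:120805958-120824547 on the minus strand and Acaca at chr11:84129672-84401651 on the plus strand. Here and below, the sham value is given first and the irradiated value second. Acly had an FPKM of 63.0 and 63.5, a difference of 0.01 with an interval from -0.03 to 0.05. The 2 libraries were level for this gene, which supplies the acetyl-CoA. Acaca had 11.3 and 9.96, a difference of -0.18 with an interval from -0.24 to -0.12. Fasn, on 11486 and 11123 fragments, had 38.0 and 32.1, a difference of -0.24 with an interval from -0.28 to -0.20, and was 15.4% lower in the irradiated library. Both the carboxylase and the synthase had lower values, while the lyase before them did not. For Acaca, 52.6% of the 50-base stretches of its longest annotated transcript also occur in Gm5182, a gene that has no row in the deposited table. The handling of fragments with more than 1 match is not stated, so the level of Acaca is uncertain to that extent.

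Elongation and desaturation held the member with the lowest difference, Elovl6, and the one with the highest level, Scd2. Elovl6, at chr3:129532386-129638493 on the plus strand, extends palmitate to stearate and had an FPKM of 12.6 and 9.22, on 2347 and 1960 fragments. Its difference of -0.45, with an interval from -0.54 to -0.37, was the lowest of the 10 genes and corresponds to a value 27.0% lower. Among all genes kept, 1.80% had a difference at or below it. Of the 50-base stretches of Elovl6, 4.39% occur in transcripts of other genes, most of all in Gm11295, which has no row in the deposited table. The desaturase genes lie close together, with Scd4 between them. Scd2 is at chr19:44293676-44306862 on the plus strand and Scd1 at chr19:44394450-44407709 on the minus strand. Scd2, the most abundant member, had 105 and 82.6, a difference of -0.34 with an interval from -0.37 to -0.31. Scd1, a main form in liver and mature fat, had 60.9 and 56.8, a difference of -0.10 with an interval from -0.14 to -0.06. The intervals of the desaturases did not overlap, so the difference was deeper for Scd2 than for Scd1 beyond counting error. Scd1 made up 36.8% of the summed desaturase FPKM under sham (counting interval 36.2% to 37.4%) and 40.7% after irradiation (40.1% to 41.4%). The summed FPKM of the pair was 166 and 139. Of their 50-base stretches, 4.66% for Scd1 and 4.01% for Scd2 occur in transcripts of other genes, for Scd1 most of all in Scd3, which had 8 and 5 fragments, and for Scd2 most of all in Scd1.

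**Figure D2:**
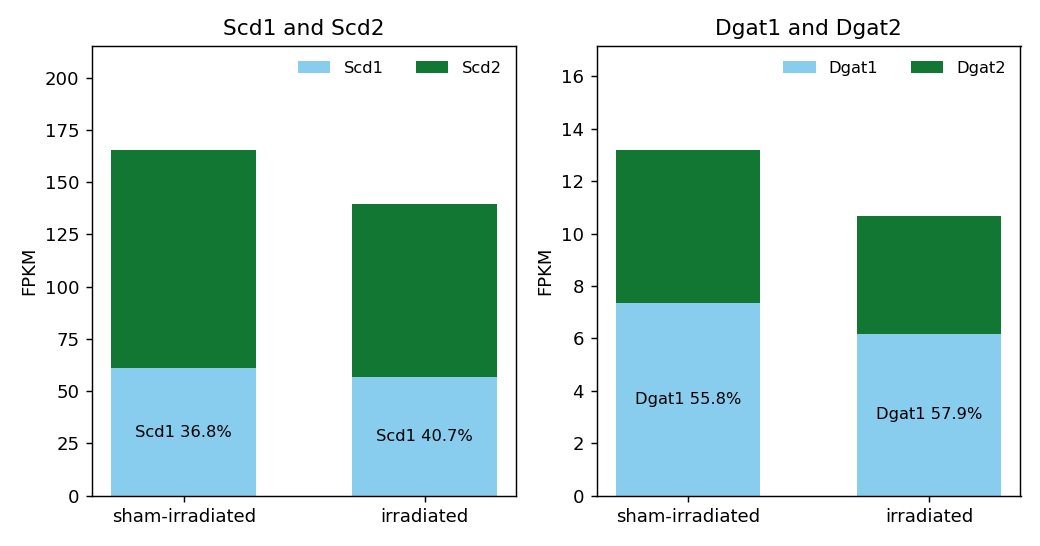
Stacked bars of FPKM, starting at 0, for the desaturases Scd1 and Scd2 (left) and the acyltransferases Dgat1 and Dgat2 (right) in each library, with the share of the lower segment printed in it (1 library each, so no error bars). The Scd stack is 166 high under sham and 139 after irradiation, with the larger gap in the Scd2 segment, and the Dgat stack is 13.2 and 10.7 high, with both segments smaller after irradiation.

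The acyltransferases that complete a triglyceride were the least abundant members. Dgat1, at chr15:76502015-76511818 on the minus strand, encodes an enzyme of the endoplasmic reticulum and had an FPKM of 7.36 and 6.18 on 427 and 410 fragments, a difference of -0.25 with an interval from -0.45 to -0.05. Dgat2, at chr7:99153663-99182713 on the minus strand, encodes an enzyme of another protein family that is also found at lipid droplets, and it had 5.84 and 4.49 on 400 and 353 fragments, a difference of -0.37 with an interval from -0.59 to -0.16. Both had lower values after irradiation, and their wide intervals overlap, so a distinction between them was not detectable at this depth. Dgat1 made up 55.8% of the summed Dgat FPKM under sham (52.4% to 59.2%) and 57.9% after irradiation (54.3% to 61.4%).

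Lpl and Srebf1 were close to level. Lpl, at chr8:68880555-68906932 on the plus strand, had an FPKM of 68.0 and 66.6 on 12721 and 14255 fragments, and its difference of -0.03 had an interval from -0.06 to 0.005. This lipase is made by macrophages as well as by fat cells. Srebf1, at chr11:60199084-60220627 on the minus strand, had 9.35 and 9.15 on 1232 and 1380 fragments, a difference of -0.03 with an interval from -0.14 to 0.08. Its message comes in forms with alternative starts, known as SREBP-1a and SREBP-1c, which a value per gene does not separate. SREBP-1 is also activated by cleavage of its protein, which RNA levels do not show. Of the annotated exon bases of Srebf1, 1.93% overlap the gene Rai1 on the opposite strand, and no other member overlaps an opposite-strand gene over more than 0.529% (Elovl6). On the same strand, Mir6922 overlaps 1.17% of the exon bases of Srebf1, and Mir5114 overlaps 1.12% of those of Scd2.

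**Figure D3:**
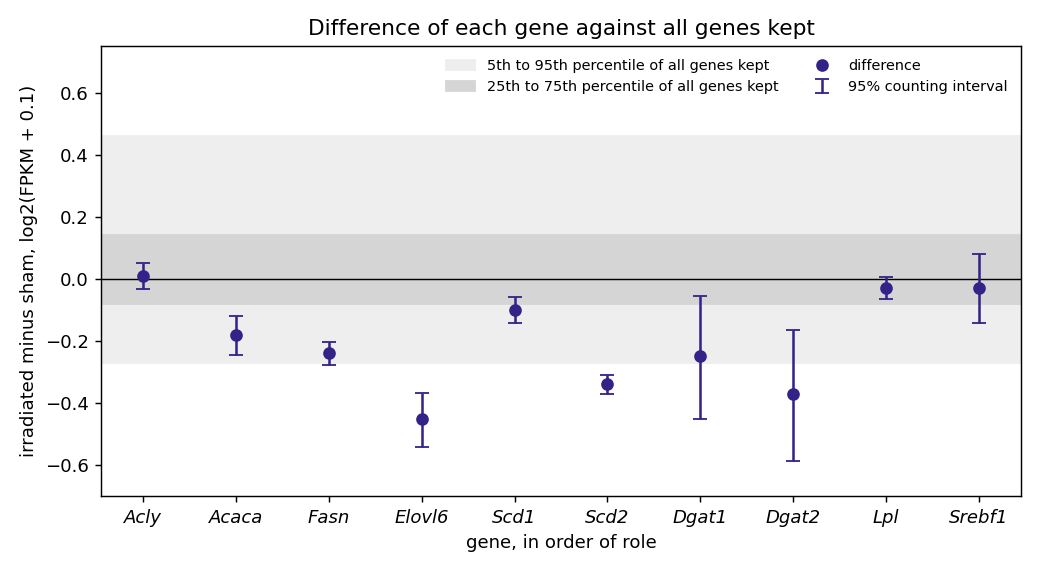
Difference of each gene (points, irradiated minus sham, log2(FPKM + 0.1)) with its 95% counting interval (bars), over bands that span the 5th to 95th and the 25th to 75th percentile of all 11253 genes kept, -0.27 to 0.46 and -0.08 to 0.14. Elovl6, Scd2, and Dgat2 lie below the wider band, and Acly, Lpl, and Srebf1 lie inside the narrower one.

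Promoter sequence was available in the RefSeq table (GRCm38.p6, the same assembly as the mm10 named for the deposited data) for 5 of the 10 genes. The windows shown are the 250 bases before a start site. They were chosen to set the member with the lowest difference, Elovl6, and the synthase Fasn beside Acly, which was level, and beside 2 of the 3 annotated start sites of Srebf1. The windows of Acaca and of the remaining Srebf1 start are not printed. That start lies further upstream than both shown, so upstream and downstream only tell the 2 shown apart. Capitals mark matches on either strand to the CCAAT box (CCAAT) or the GC box (GGGCGG). Positions lie at chr3:129532136-129532385 on the plus strand for Elovl6, and on the minus strand at chr11:120824548-120824797 for Fasn, chr11:100528001-100528250 for Acly, and chr11:60220628-60220877 and chr11:60210472-60210721 for Srebf1. Each ends at the base before the annotated start, which for Elovl6, Fasn, Acly, and the upstream Srebf1 window is the gene boundary in the deposited table.
Elovl6: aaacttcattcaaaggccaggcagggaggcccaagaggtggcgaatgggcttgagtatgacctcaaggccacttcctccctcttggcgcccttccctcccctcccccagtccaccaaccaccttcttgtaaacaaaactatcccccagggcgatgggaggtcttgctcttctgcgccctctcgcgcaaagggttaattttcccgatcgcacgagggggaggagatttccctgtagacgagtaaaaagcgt
Fasn: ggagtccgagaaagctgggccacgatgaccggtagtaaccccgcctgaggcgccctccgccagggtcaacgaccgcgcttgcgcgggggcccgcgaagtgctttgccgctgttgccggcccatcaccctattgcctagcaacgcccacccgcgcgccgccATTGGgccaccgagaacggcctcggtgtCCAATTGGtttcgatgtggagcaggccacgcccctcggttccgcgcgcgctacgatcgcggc
Acly: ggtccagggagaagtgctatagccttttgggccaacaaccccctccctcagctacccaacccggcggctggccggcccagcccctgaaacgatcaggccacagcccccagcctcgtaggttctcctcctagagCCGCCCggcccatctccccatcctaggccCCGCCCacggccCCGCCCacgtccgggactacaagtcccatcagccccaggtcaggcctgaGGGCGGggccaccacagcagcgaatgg
Srebf1, upstream: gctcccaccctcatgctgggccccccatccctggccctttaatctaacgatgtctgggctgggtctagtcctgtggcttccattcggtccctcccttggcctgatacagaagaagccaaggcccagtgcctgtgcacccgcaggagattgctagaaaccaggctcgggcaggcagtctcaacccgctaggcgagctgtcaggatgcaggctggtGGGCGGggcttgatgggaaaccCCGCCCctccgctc
Srebf1, downstream: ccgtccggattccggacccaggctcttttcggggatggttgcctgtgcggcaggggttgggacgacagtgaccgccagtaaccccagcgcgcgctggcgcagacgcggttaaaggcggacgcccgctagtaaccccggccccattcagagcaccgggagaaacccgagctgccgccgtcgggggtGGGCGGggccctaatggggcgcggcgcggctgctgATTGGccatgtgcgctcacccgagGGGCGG

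The windows differed in these short motifs. The Fasn window held 3 CCAAT matches, at 90, 62, and 59 bases before the start, of which the last pair overlap, and no GC box. The Acly window held 4 GC boxes and no CCAAT box. The downstream Srebf1 window held both, with 1 CCAAT match and 2 GC boxes, and the upstream window held 2 GC boxes. No letters of either motif, nor of the sterol regulatory element TCACNCCAC, the E-box CACGTG, or the TATA box TATAAA, were found in the Elovl6 window. The last 3 motifs had no match in the other windows printed. Of the windows not printed, that of Acaca held no match to any of these motifs, and that of the remaining Srebf1 start held 1 CCAAT match. Across 32817 windows of the same length, CCAAT occurred in 33.8%, GGGCGG in 32.7%, TCACNCCAC in 1.05%, CACGTG in 6.02%, and TATAAA in 12.4%. A match in these letters is a description of the window and not a site.

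The rest of the fatty acid pathway was mostly lower by small amounts. Of 29 further genes of fatty acid supply, elongation, desaturation, and activation, 22 reached an FPKM of 1, of which 17 had a lower and 5 a higher value after irradiation, with a median of -0.04. A difference of -0.2 or lower was found for 5, and 0 were higher by at least 0.2. The counting interval lay below 0 for 8 and above 0 for 1. Over all genes kept, 44.0% were lower, 8.93% were lower by at least 0.2, and 18.2% were higher by at least 0.2. Their interval lay below 0 for 17.4% and above 0 for 23.8%. The interval shares are not at like depth, as the median FPKM under sham was 17.2 here and 8.30 over all genes kept. Acsl3, which activates fatty acids by joining them to CoA, had the lowest value at -0.29 (FPKM 9.09 and 7.42), followed by the desaturase Fads1 at -0.26 (40.7 and 34.0) and the elongation reductase Tecr at -0.25 (44.2 and 37.2). The most abundant genes of the list were close to level, with Acsl4 at -0.08 (79.2 and 74.96), the elongation ketoreductase Hsd17b12 at -0.04 (62.2 and 60.4), and Acsl5 at -0.04 (50.8 and 49.4).

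Genes of triglyceride synthesis other than Dgat1 and Dgat2 had no common direction. Of 22 genes, 14 reached an FPKM of 1, with 8 lower, 6 higher, and a median of -0.015. Among all genes kept, 44.0% were lower. Gpam, the mitochondrial acyltransferase of the opening step, had an FPKM of 17.2 and 11.3, a difference of -0.60 with an interval from -0.69 to -0.52, lower than that of any of the 10 genes. In later steps, Lpin1, which makes diacylglycerol, was higher at 0.33 (2.09 and 2.65), and so was Agpat2, which makes phosphatidic acid, at 0.30 (6.49 and 8.01). Gpat4, of the same opening step as Gpam, was at -0.04 (26.1 and 25.4). Agpat1 was at 0.01 (28.9 and 29.1) and Lclat1 at 0.08 (14.8 and 15.7).

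Genes of lipid uptake other than Lpl were spread to either side of 0. Of 25 genes, 17 reached an FPKM of 1, with 7 lower, 9 higher, 1 at 0, and a median of 0.04. The share of lower genes is close to the 44.0% of all genes kept. The fatty acid transporter Cd36 had an FPKM of 118 and 161, a difference of 0.45 with an interval from 0.42 to 0.48, and the fatty acid carrier Fabp5 had 94.3 and 123.5, a difference of 0.39 with an interval from 0.32 to 0.46. Cd36 and Fabp5 are also expressed by macrophages, whose markers were mostly higher in the irradiated library, and the part of these cells was not tested. Cav1, of the caveolae at the cell surface, was at 0.11 (113 and 122). Angptl8, an inhibitor of Lpl activity, was at -0.48, but on only 35 and 28 fragments its interval ran from -1.29 to 0.24 and no difference was detectable at this depth. Angptl4, another inhibitor of Lpl in this list, had an FPKM of 50.1 and 39.6. Its difference was -0.34, with an interval from -0.42 to -0.26.

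Of 26 genes that control fatty acid synthesis, 24 reached an FPKM of 1, with 10 lower, 13 higher, 1 at 0, and a median of 0.025. Both are close to all genes kept, of which 44.0% were lower, with a median of 0.02. Insig1, which holds SREBP proteins in the endoplasmic reticulum and is itself a known SREBP target, had an FPKM of 24.3 and 19.9, a difference of -0.29 with an interval from -0.38 to -0.20. Mbtps1, a protease that cleaves SREBP proteins, was at -0.14 (26.6 and 24.2). The stress-induced pseudokinase Trib3 had the lowest value of the list at -0.56 (9.15 and 6.18), and the AMP kinase subunit gene Prkag2 had the highest at 0.48 (2.58 and 3.63). Akt2, a kinase of the insulin pathway, was at 0.02 (31.5 and 31.9), and the AMP kinase subunit gene Prkag1 was at -0.03 (31.02 and 30.4).

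**Figure D4:**
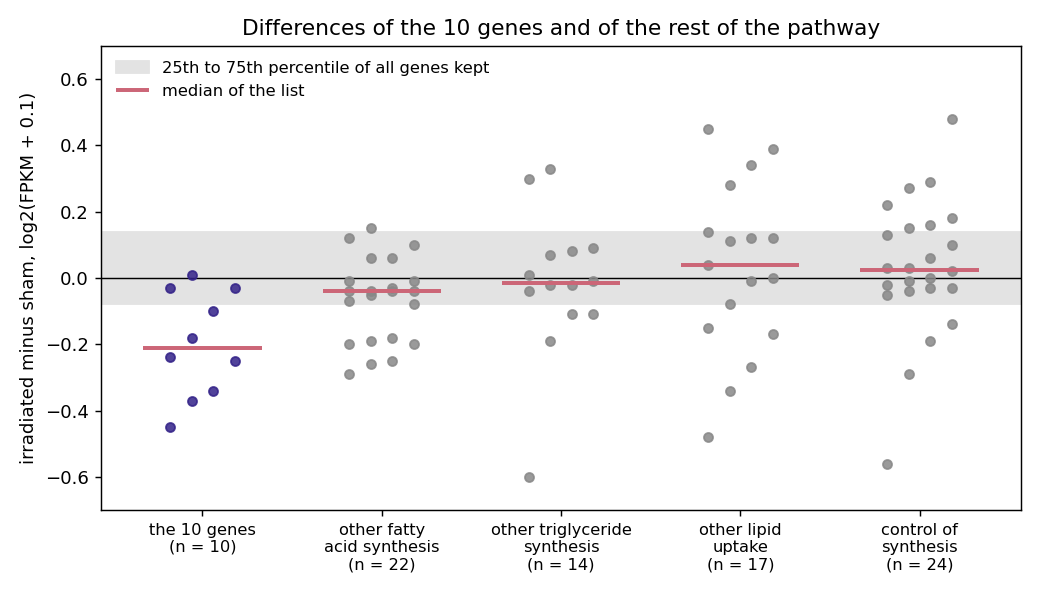
Differences (irradiated minus sham, log2(FPKM + 0.1)) of genes kept, from the 10-gene set and in 4 lists of related genes, 1 point per gene with a line at each list's median, over a band from the 25th to the 75th percentile of all genes kept. The median is -0.21 for the 10 genes and lies between -0.04 and 0.04 for the other lists, and the lowest point is Gpam at -0.60.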

How the data were processed

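Polyadenylated RNA was sequenced in 2 libraries, and groups were taken from the treatment labels. The authors deposited FPKM on a log2 scale, after adding 0.1 and rounding to 2 decimals, beside coordinates and gene length. Per the labels, the preparation was stranded and the submitters' processing notes name the build mm10. Aligner, counter, and filters were not given in the sources used here. The paper that cites these data does not describe them.

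FPKM was recovered by undoing the logarithm. Library totals of about 30600000 and 35000000 fragments were those at which genes with under 20 fragments came closest to whole numbers. Only such genes for which rounding of the deposited value could move the count by less than 0.12 fragments were used. Of these, 3589 of 3590 (sham) and 3587 of 3587 (irradiated) were whole to within 0.12, a rate that this choice favours. For a gene of 1 kb, a count of 0 allows an FPKM of up to 0.0981 and 0.0857, respectively (3 fragments). Recovered fragments of abundant genes are approximate, and rounding can move a difference by up to 0.01. Intervals are exact 95% (Clopper-Pearson) intervals and cover counting error only, and PCR copies are not independent molecules. The calculation was tested on simulated data. Genes that reached an FPKM of 1 in either library were kept. No p-value was computed.

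The genes, lists, and thresholds were chosen with earlier results of these data known. All 10 genes were named, with the 3 most abundant genes and the 3 with the largest absolute difference of each related list, the most abundant marker of each cell type, and Adipoq and Plin1. Angptl4 was named beside Angptl8 after its values were seen. Alternatives were another pseudocount or none, other filters, other scalings, and the mean. Promoters were from RefSeq GRCm38.p6, and transcripts for shared 50-base stretches were from GENCODE M21. Computations used Python 3.11.15 with SciPy 1.17.1, pandas 2.3.3, and numpy 2.4.6, and plots used matplotlib 3.10.9.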

Additional observations from a re-analysis of the deposited data

How the results depend on the processing

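No paired analysis was possible because the design has a single library in each arm, and no replicate could be left out. The median of the 10 genes lay between -0.23, centred on the median of all genes, and -0.19, with log2(FPKM + 1). Acly changed sign within its counting interval, to -0.01, when centred, and 10 of the 10 genes were then below 0. Acaca then reached -0.20, so that 6 genes were lower by at least 0.2. Of the other lists, the uptake median was 0 without a filter and -0.005 at an FPKM of at least 5. Angptl4 was not run under the settings that follow. Under another or no pseudocount, centring, and totals without the 100 most abundant genes, none of the 10 genes or of the other named related genes with an FPKM of at least 1 moved beyond its counting interval. The same settings were run for the named markers and for Gpat3, Acsl6, and Gpd1 after seeing the data, and there Col1a1 (-0.46 when centred) and, with log2(FPKM + 1), Gpat3 (0.41) and Acsl6 (0.30) did, each in the same direction.

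Counts over all genes depended on the pseudocount and the filter. As reported, 89 genes were higher and 42 lower by at least 1, and 2050 were higher and 1005 lower by at least 0.2. With log2(FPKM + 1), 29 and 17 genes differed by at least 1. Without a filter, 267 and 148 did, and 4209 and 2425 differed by at least 0.2, of 24091 genes. With a minimum FPKM of 5, which leaves 7538 genes, the numbers were 23 and 10, and 1012 and 531.

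When fragments were not divided by gene length, the share of Scd1 was 34.0% and 37.9% and that of Dgat1 51.6% and 53.7% (sham and irradiated), since the lengths differ. Depth limited Dgat1 and Dgat2, on 427 fragments or fewer.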

Other observations

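Of the genes of the 4 related lists, 25 stayed under an FPKM of 1 in both libraries. Of these, 11 had a higher value in the irradiated library, 8 a lower one, and 6 had none in either, and the counting interval lay above 0 for 2 and below 0 for 0. Those named here were chosen after their values were seen. Gpat3, an acyltransferase of the opening step of triglyceride synthesis known for its rise when fat cells form, had an FPKM of 0.373 and 0.827 on 36 and 91 fragments, a difference of 0.97 that was 1.15 with no pseudocount and 0.41 with log2(FPKM + 1). The counting interval of its fragment ratio, without the added 0.1, ran from 0.57 to 1.74. Acsl6, which activates fatty acids, had 0.292 and 0.593 on 37 and 86 fragments, a difference of 0.82 that was 1.02 with no pseudocount and 0.30 with log2(FPKM + 1), and its interval ran from 0.45 to 1.62. Gpd1, which makes glycerol 3-phosphate for triglycerides and is abundant in mature fat cells, had 0.118 and 0.195 on 10 and 19 fragments, and its interval from -0.44 to 2.00 spans 0. Thrsp, a lipogenesis gene of mature fat cells, had 0 and 4 fragments, and Mlxipl, which encodes the glucose-responsive factor ChREBP, had 0 and 2, so no fold is given for either. Elovl2, an elongase of polyunsaturated fatty acids, was lower, with 11 and 5 fragments, a difference of -0.49, and an interval from -3.21 to 0.31. Of the 12 mature adipocyte markers under an FPKM of 1, 9 were higher and 3 lower. The interval lay above 0 for 2 of them, Plin1 (26 and 56 fragments, from 0.22 to 1.64) and Plin4 (32 and 70 fragments, from 0.31 to 1.59). No share over all genes under an FPKM of 1 was computed. The counts for these markers and for the 25 related genes therefore have no background to be set against.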
